A study of Rattus norvegicus with 64 samples.

Results

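The genes described here carry the Hedgehog signal: the ligands Shh, Ihh and Dhh, the receptor Ptch1, the transducer Smo, the transcription factors Gli1, Gli2 and Gli3, and Hhip, a membrane protein that binds the ligands. They were taken by name as genes of the pathway, though earlier results of these data were known when the list was chosen. The RefSeq accession of each array probe was matched to rat gene symbols, and 8 of the 9 genes had a probe, with 11 probes in all, among 15715 named genes and 18758 named probes. Hhip was not among the matched probes and is not analysed here. The other 5 genes had 1 probe, and Dhh, Gli2 and Ihh had 2 each.

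Total RNA of reconstructed rat bladder wall was hybridized to 64 1-color Agilent arrays, 1 rat per array. Male Wistar rats had lost part of the bladder by hemicystectomy, and the gap was closed with BAM, bladder wall matrix from which the cells had been removed. In the seeded groups the BAM was seeded before grafting with ASCs, at the same listed dose of cells in every seeded group. The paper states that the cells were then cultured on the BAM for 7 days. ASCs are stromal cells, here grown to the third passage from the retroperitoneal fat of 10-week-old male Wistar rats. The sources disagree on whether these were donor rats or the operated animals themselves. Rats with BAM only and with BAM seeded with ASCs were killed at 7, 30, 90 and 180 days, which gave 8 groups of 8 arrays. All groups shared the surgery, so no unoperated bladder stands beside them. The age of the operated rats was not given in the sources used here, and the array cannot separate RNA of seeded cells from RNA of the host. Every group had its own slide, and the effect of a slide cannot be separated from that of its group. The scanner read the early slides (7 and 30 days) on one date and the late slides (90 and 180 days) on another.

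The Hedgehog pathway passes a signal from cells that secrete a ligand to neighbours that carry Ptch1. Without ligand Ptch1 holds Smo inactive. Bound ligand releases Smo, which acts at the primary cilium and turns Gli2 and Gli3 from repressing into activating forms. Gli1 and Ptch1 are transcribed in response, and their mRNA is commonly read as the output of the pathway. In the bladder, Shh is known as a product of basal urothelial cells and the stroma beneath as the layer that answers it.

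The promoter of Ptch1 is shown because Ptch1 is both the receptor and a target of the Gli factors, and because its group mean was higher at each later day in both grafts. Promoter windows of 300 bases, from 250 before to 50 after the gene start, were taken from RefSeq in the build GRCr8, and 6 of the 9 genes had one (Dhh, Gli2, Gli3, Hhip, Ptch1 and Smo). Each was searched on both strands for the Gli consensus GACCACCCA. The window of Ptch1, on the plus strand of chromosome 17, held 1 exact copy on the opposite strand, which starts at position -172 from the gene start and stands in capitals as its reverse complement TGGGTGGTC.
Ptch1, chr17:1555321-1555620: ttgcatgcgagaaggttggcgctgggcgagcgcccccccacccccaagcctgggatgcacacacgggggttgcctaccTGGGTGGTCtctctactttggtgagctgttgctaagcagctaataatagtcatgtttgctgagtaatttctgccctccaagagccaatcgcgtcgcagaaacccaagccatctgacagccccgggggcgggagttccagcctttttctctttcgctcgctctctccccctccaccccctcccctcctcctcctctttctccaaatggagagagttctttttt
Of all 33469 windows of this length, 129 (0.385%) held an exact copy and 2452 (7.33%) one with at most 1 mismatch. The other 5 windows held neither. A match of letters is a description of the window and not a site of binding.

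Signals are log2 values of Agilent's processed signal, set against the 75th percentile of the gene spots on the same array, so that a negative value lies below that percentile. Levels of different probes are not compared. "Well above background" is the scanner software's call for a spot. It held for 73.3% to 95.6% of gene spots per array at 7 and 30 days but for 35.5% to 64.6% at 90 and 180 days, where the median local background was 99 to 366 against 42 to 52. The late groups also differed among themselves. At 90 days this background was 321 to 366 with BAM only and 99 to 120 with ASCs. At 180 days it was 138 to 171 and 119 to 152. BAM seeded with ASCs replicate 1 at 30 days (95.6%) and BAM replicate 8 at 90 days (35.5%) stood at these extremes. The smooth muscle markers on the array were well above background on all 64 arrays in 9 of 9 genes and the urothelial markers in 13 of 17. Differences were tested with limma over all 64 arrays, adjusted by Benjamini-Hochberg over 30367 probes, and called where the adjusted p was under 0.01 and the change exceeded 1.5-fold. A gene was counted by its probe with the highest mean signal. In RNA of a whole wall, fewer cells of a type and less RNA per cell cannot be told apart.

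Ihh, the ligand best known from the growth plate of bone and the gut epithelium, showed the widest time course. In bladders with BAM only at 7 days its lowest, median and highest signals were -7.80, -5.64 and -3.26, and 5 of 8 arrays were well above background. The next group, at 30 days, gave -3.35, -0.90 and -0.30. Those of 90 and 180 days gave -2.55, 0.096 and 0.77, then 0.024, 0.60 and 0.83. With ASCs, in the same order of days, the signals were -5.79, -4.10 and -2.10, then -4.88, -0.96 and 0.36, then -0.20, 0.48 and 1.26, and last -0.90, -0.44 and 1.28. In BAM only the ranges at 7 and 180 days did not meet, and the SD between rats was 1.57 in the first and 0.27 in the last group.

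**Figure D1:**
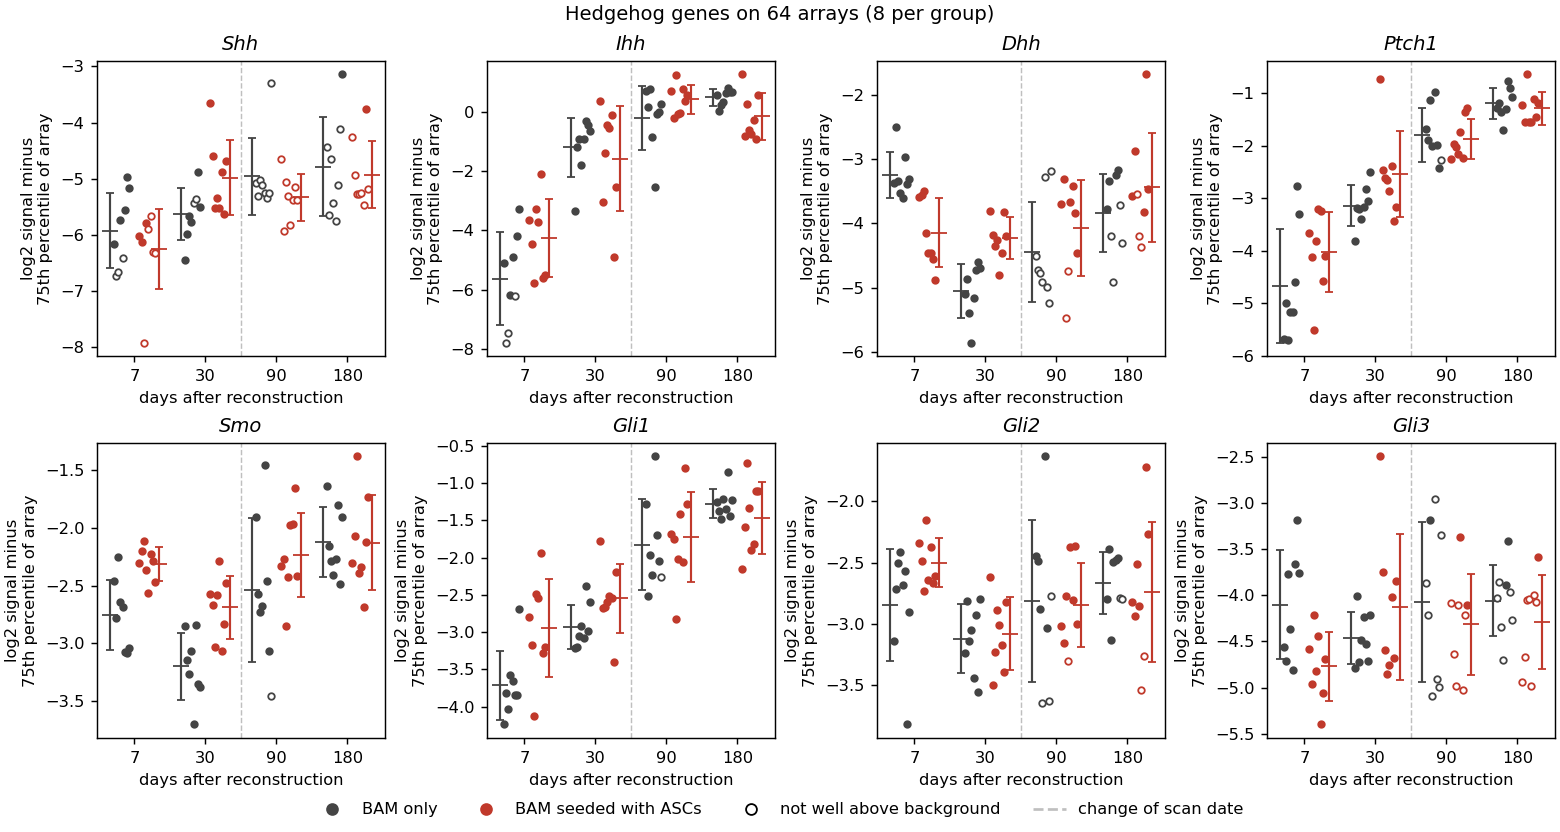
Signal of each Hedgehog gene on every array (y axis, log2 relative to the 75th percentile of its array) by day after reconstruction (x axis) for BAM only and BAM seeded with ASCs, with the mean and SD of 8 arrays. The means of Ptch1 and Gli1 are higher at each later day in both grafts, Ihh with ASCs is lower again at 180 days, Shh is mostly drawn with open circles (not well above background) at 90 and 180 days, and the dashed line marks the change of scan date.

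Between 7 and 30 days, within 1 scan date, 3 of the 8 genes were called in BAM only, beside 8.63% of all probes. Ihh rose by 4.45 (SE 0.56) on the log2 scale, a 21.9-fold change with an adjusted p of 1.5e-08 in limma. With normexp background correction the rise was 2.38 (adjusted p = 5.1e-06 in limma), so its size depended on how the background was treated. The ranges overlapped by 1 array on each side. Ptch1, the receptor, rose by 1.53 (SE 0.31, adjusted p = 1.5e-04 in limma). Dhh, the ligand known from Schwann cells of peripheral nerve, fell by 1.80 (SE 0.30, adjusted p = 6.4e-06 in limma), and its ranges at 7 and 30 days did not overlap. The median over all probes was -0.06.

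In BAM seeded with ASCs, 3 of the 8 genes were called between 7 and 30 days, beside 8.04% of all probes. Ihh rose by 2.70 (SE 0.56, adjusted p = 2.9e-04 in limma) and Ptch1 by 1.49 (SE 0.31, adjusted p = 2.8e-04 in limma), while the median over all probes rose by 0.27. Shh was called at 1.28 (SE 0.32, adjusted p = 0.0026 in limma) with ranges that did not overlap, but 3 of 8 arrays at 7 days were well above background. In limma that call was lost with quantile normalization (0.38, adjusted p = 0.49), with normexp background correction (0.36, adjusted p = 0.26) and with the deposited matrix values (0.69, adjusted p = 0.13). It was also lost in limma without 1 array of the seeded graft, either replicate 3 at 7 days (1.04) or replicate 1 at 30 days (1.09), with an adjusted p of 0.013 each. The matrix values depart from the scanner signal in replicates 2, 3 and 4 of the seeded graft at 7 days. The rise of Ptch1 in BAM only was 0.55 (adjusted p = 0.079 in limma) after normexp correction. Ihh in both grafts, Ptch1 with ASCs and Dhh in BAM only passed the call under every alternative run, but with normexp correction the change of Ihh with ASCs was 1.90, that of Ptch1 with ASCs 0.94 and that of Dhh in BAM only -1.08.

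**Figure D2:**
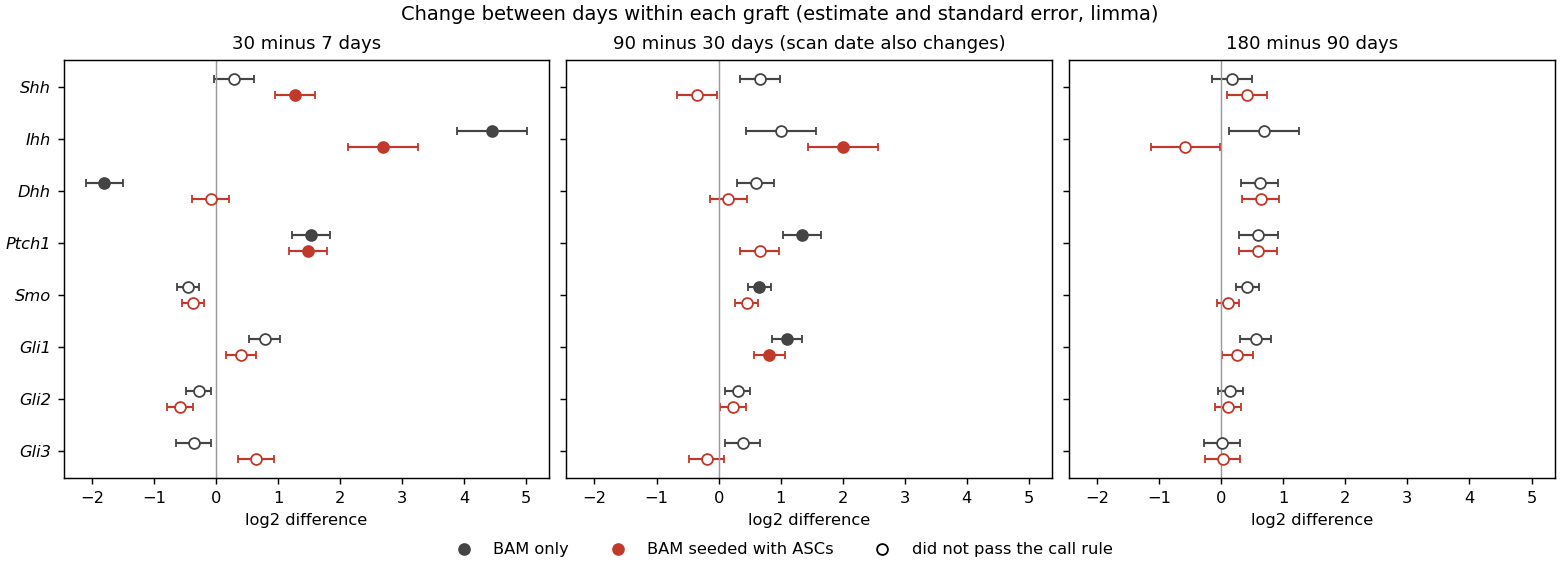
Log2 difference between successive days (x axis, with the standard error from limma) for each Hedgehog gene (y axis) in BAM only and in BAM seeded with ASCs, and filled points passed the call rule. Ihh and Ptch1 lie right of zero in both grafts from 7 to 30 days, Dhh lies left of zero in BAM only, and no gene was called from 90 to 180 days.

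The mean signal of Ptch1 was higher at each later day in both grafts. With BAM only its lowest, median and highest signals, from 7 to 180 days, were -5.69, -5.09 and -2.78, then -3.82, -3.18 and -2.50, then -2.43, -1.93 and -0.98, and last -1.70, -1.24 and -0.76. With ASCs they were -5.52, -3.95 and -3.20, then -3.43, -2.63 and -0.73, then -2.26, -2.0 and -1.29, and last -1.55, -1.34 and -0.65. The high value at 30 days with ASCs belongs to replicate 1, the array with 95.6% of spots well above background. Over the whole course, the group mean of Ptch1 was 3.48 higher at 180 than at 7 days with BAM only and 2.74 higher with ASCs. Marker scores (mean signal of a list of genes) moved over the same days. From 7 to 180 days the smooth muscle mean went from 1.06 to 3.29 with BAM only and from 1.35 to 3.10 with ASCs, and the luminal urothelial mean from 0.73 to 3.84 and from 2.69 to 3.32. The Schwann cell mean went from -4.10 to -2.96 and from -4.15 to -3.02, and the leukocyte mean from 2.54 to -0.89 and from 1.93 to -0.46. The part of these cell types in the time course was not tested.

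The mean of Gli1, the factor that acts as an activator, was also higher at each later day. Its lowest, median and highest signals in BAM only, from 7 to 180 days, were -4.24, -3.83 and -2.69, then -3.21, -3.02 and -2.38, then -2.51, -2.0 and -0.64, and last -1.48, -1.31 and -0.85. With ASCs they were -4.13, -2.99 and -1.94, then -3.40, -2.57 and -1.78, then -2.82, -1.71 and -0.79, and last -2.15, -1.47 and -0.72. From 7 to 30 days the differences of 0.78 (SE 0.24) in BAM only and 0.40 (SE 0.24) with ASCs missed the call (adjusted p = 0.016 and 0.20 in limma). Without BAM replicate 8 at 7 days, the highest of its group, the first was 0.93 and was called (adjusted p = 0.0033 in limma), as it was with quantile normalization (0.88, adjusted p = 0.0064).

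From 30 to 90 days the scan date changed together with the day, and the 2 cannot be told apart. In BAM only, 3 of the 8 genes were called beside 44.7% of all probes: Ptch1 (1.35, SE 0.31), Gli1 (1.1, SE 0.24) and Smo (0.66, SE 0.18), all higher, while the median over all probes was 0.30. With ASCs, 2 were called beside 28% of all probes: Ihh (2.00, SE 0.56) and Gli1 (0.82, SE 0.24), with a median over all probes of 0.11. Both shares of the 8 genes were below that of the array as a whole. Without BAM seeded with ASCs replicate 7 at 30 days, neither Ihh (1.53, adjusted p = 0.016) nor Gli1 (0.70, adjusted p = 0.018) was called in limma, and without replicate 5, 7 or 8 at 90 days Gli1 was not (0.69 to 0.77). Without replicate 1 at 30 days Ptch1 was called too (0.92, adjusted p = 0.0069 in limma). In BAM only, Smo was at 0.25 (adjusted p = 0.56 in limma) after quantile normalization, and its change stayed under 1.5-fold without BAM replicate 1 or 5 at 90 days (0.57 and 0.50).

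From 90 to 180 days, within 1 scan date again, none of the 8 genes was called in either graft, beside 9.36% of all probes in BAM only and 4.13% with ASCs. The median local background in BAM only was 321 to 366 at 90 days and 138 to 171 at 180 days. At an unadjusted p under 0.05 there were 3 genes in BAM only, beside 34.0% of all probes, and 1 with ASCs, beside 26.1%. All 8 values were above 0 in BAM only, from 0.01 for Gli3 to 0.68 for Ihh, beside a median over all probes of -0.24. That median was -0.0005 with quantile normalization and 0.067 with normexp correction. Shh, Dhh and Gli3 were well above background on 0, 0 and 1 of 8 arrays of BAM only at 90 days, so their signs carry little weight. In this step of BAM only, Shh passed the call with quantile normalization and Dhh with normexp correction. But at 90 days no array of that group was well above background for Shh or for the brighter probe of Dhh. The sizes under these settings are therefore not given.

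The other ligands were measured less firmly. Shh was well above background on 24 of 64 arrays, 22 of them at 7 and 30 days, and on none at 90 days. Its group means lay between -6.26 and -4.79, and the late days give no fold for it. Dhh was at -3.61, -3.36 and -2.49 (lowest, median and highest) in BAM only at 7 days and at -5.86, -4.98 and -4.60 at 30 days. With ASCs it was at -4.89, -4.31 and -3.49 and then at -4.81, -4.23 and -3.80, so the median moved little. At 90 days no array with BAM only was well above background for this, the brighter, probe of Dhh. Its second, dimmer probe also fell from 7 to 30 days in BAM only (0.87 lower, SE 0.25, adjusted p = 0.0087 in limma), and the deviations of the 2 probes from their group means correlated at r = 0.17 over 64 arrays. It was well above background on 1 of the 32 arrays of 90 and 180 days. There it was called at 0.95 from 30 to 90 days and at -0.92 from 90 to 180 days in BAM only, where the brighter probe was not called (0.60 and 0.62). The dimmer probe of Ihh was well above background on 4 of 64 arrays and gives no time course, although its deviations followed those of the brighter one (r = 0.56).

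The means of Smo, Gli2 and Gli3 spanned 1.08, 0.62 and 0.71 over the 8 groups, against 6.14 for Ihh, 3.48 for Ptch1 and 2.44 for Gli1. The group means of Smo, the membrane protein that passes the signal inward, lay between -3.20 and -2.12. Those of Gli2, the main activator downstream of Smo, lay between -3.12 and -2.50. Gli3, which acts largely as a repressor, lay between -4.77 and -4.06 and was well above background on 32 of 32 arrays early and 6 of 32 late. Gli2 fell short of the call from 7 to 30 days with ASCs (0.58 lower, adjusted p = 0.030 in limma) and passed it after quantile normalization (0.87 lower, adjusted p = 0.0097). The second probe of Gli2 did not follow the first (r = -0.07) and was well above background on 26 arrays.

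Between grafts, none of the 8 genes was called at any day. The shares of all probes called, from 7 to 180 days, were 7.71%, 1.67%, 12.4% and 2.42%. At an unadjusted p under 0.05 there were 6 of the 8 genes at 7 days, beside 29.2% of all probes, and 3 at 30 days, beside 25.8%. At 90 and 180 days there were none, beside 47.7% and 14.1%. The median difference of the 8 genes at the early days was 0.39 and 0.45, beside medians over all probes of -0.16 and 0.11. The later ones were 0.034 and -0.11, beside -0.27 and 0.055.

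At 7 days Gli1 differed most clearly in the direction of the seeded graft, by 0.77 (95% interval 0.28 to 1.26, adjusted p = 0.021 in limma). In limma it was called with quantile normalization (0.95, adjusted p = 0.0053) and without either of 2 arrays, BAM seeded with ASCs replicate 3 (0.94, adjusted p = 0.0036) or BAM replicate 8 (0.91, adjusted p = 0.0055). Ihh differed by 1.37 (0.24 to 2.50), Ptch1 by 0.65 (0.03 to 1.27) and Smo by 0.44 (0.07 to 0.80), with adjusted p between 0.083 and 0.15 in limma. Dhh was lower with ASCs by 0.89 (adjusted p = 0.030 in limma), and so was its second probe, which passed the call (-0.96, adjusted p = 0.0046 in limma). Gli3 was lower too (-0.67, interval -1.24 to -0.10, adjusted p = 0.097 in limma). Shh was at -0.33 (-0.98 to 0.31), but at 0.10 with quantile normalization and 0.26 with the matrix values. The 2 probes of Gli2 went opposite ways (0.34 and -0.72, neither called). The ranges of the 2 grafts overlapped for all 8 genes at every day, as they did for most probes, since 1.93% to 4.46% of all probes did not overlap. At 30 days the widest differences were 0.82 (0.21 to 1.42) for Dhh, 0.65 (0.00 to 1.29) for Shh and 0.60 (-0.02 to 1.22) for Ptch1. At 90 and 180 days every interval of the brighter probes held 0, and those of Gli2 ran from -0.44 to 0.38 and from -0.48 to 0.34. The second probes of Dhh (-0.95, interval -1.45 to -0.44, called) and Gli2 (-0.91, interval -1.52 to -0.31, not called) were lower with ASCs at 90 days. Over both grafts of that day, 1 array was well above background for this probe of Dhh and none for that of Gli2.

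The graft difference itself changed between days for Dhh alone among the 8 genes, beside 18.5% of all probes (moderated F of 6.05, adjusted p = 0.0071 in limma). From 7 to 180 days it was -0.89, 0.82, 0.37 and 0.39, but at 90 days no array with BAM only was well above background for the brighter probe. The second probe gave an F of 8.04 (adjusted p = 0.0014 in limma), but at 90 days it was lower with ASCs (-0.95), where 1 array was well above background, and the brighter probe was not lower. In limma the Dhh call was lost with quantile normalization (F of 3.36, adjusted p = 0.071), with the deposited matrix values (5.57, adjusted p = 0.011) and with the 75th percentile taken over detected probes (5.38, adjusted p = 0.012), while with normexp correction it was 10.1 (adjusted p = 2.7e-04). It was also lost without any 1 of 9 arrays (adjusted p 0.010 to 0.017 in limma), namely BAM seeded with ASCs replicates 4 to 8 at 7 days, BAM replicates 2 and 6 at 7 days and BAM replicates 3 and 4 at 30 days. The matrix values depart from the scanner signal in BAM seeded with ASCs replicates 2, 3 and 4 at 7 days. Other adjusted p-values of the interaction ran from 0.092 (Gli1) to 0.53 (Gli2).

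Links to the urothelium were measured with a score, the mean signal of 17 urothelial genes on the array, as the deviation of each array from its group mean. With ASCs the score was 2.45 ± 0.29 at 7 days (SD, n = 8) against 0.96 ± 1.45 with BAM only, and 3.08 ± 0.48 against 1.96 ± 0.62 at 30 days. The late pairs were 2.88 ± 0.46 against 2.07 ± 0.94, then 2.57 ± 0.71 against 2.78 ± 0.50. BAM replicate 7 at 7 days stood apart with a score of -1.95. Of the 17 genes, 8 were saturated on some array. Over all 64 arrays none of the 8 Hedgehog genes had a slope on the score that was called (adjusted p below 0.01), beside 6.62% of all probes.

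For Shh and Ihh no link with the whole urothelial score was detected over all 64 arrays. Shh was well above background on 24 of them, 2 of these late, so its correlations rest largely on dim signal. Shh had r = 0.03 and rho = 0.14 (permutation p = 0.81 and 0.28), and Ihh r = 0.02 and rho = 0.01 (permutation p = 0.90 and 0.95). Without BAM replicate 7 at 7 days r was 0.18 for Shh and 0.15 for Ihh, and 0.38 and 0.11 in the early arrays. With the luminal genes alone, which make the barrier of the bladder surface, Ihh had r = 0.23 (permutation p = 0.15) and rho = 0.27 (permutation p = 0.056), with r = 0.63 in the late arrays and 0.10 in the early ones. The late value was 0.28 without BAM replicate 5 at 90 days, the array with the lowest late score, and the early value 0.36 without BAM replicate 7 at 7 days, which made r 0.43 over all arrays. Shh had r = 0.14 (permutation p = 0.32) and rho = 0.28 (permutation p = 0.027) with the luminal genes, and r = 0.33 without that second array. With the basal genes, which mark the progenitor layer, Ihh had r = -0.26 (permutation p = 0.039) and rho = -0.27 (permutation p = 0.026). These are raw p-values among 72 relations of 8 genes with 9 lists.

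Gli3 fell most with the score, at a slope of -0.31 (SE 0.09) per log2 unit (adjusted p = 0.018 in limma), with r = -0.41 (permutation p = 0.0027) and rho = -0.35 (permutation p = 0.010). In limma the slope was called with the smooth muscle score added to the fit (-0.35, adjusted p = 0.0023) and without BAM replicate 8 at 7 days (-0.36, adjusted p = 0.0058). It was -0.23 (adjusted p = 0.051 in limma) with quantile normalization and -0.12 (adjusted p = 0.34 in limma) with normexp correction. Without the 2 arrays farthest from the median score r was -0.28. For Gli2 and Smo the array that stood apart changed the call in limma. Without BAM replicate 7 at 7 days the slopes of Gli2 (-0.33, adjusted p = 2.6e-04) and Smo (-0.27, adjusted p = 0.0025) were called. With it they were -0.13 (adjusted p = 0.23) and -0.16 (adjusted p = 0.081). With all arrays they were -0.02 and -0.05 after quantile normalization (adjusted p = 0.92 and 0.85 in limma). After normexp correction they were -0.07 and -0.08 (adjusted p = 0.62 and 0.40 in limma).

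At 90 and 180 days Gli1, Gli2 and Smo fell as the urothelial score rose. Their slopes were -0.48 (SE 0.11), -0.54 (SE 0.09) and -0.43 (SE 0.10), with adjusted p of 0.0036, 1.3e-04 and 0.0028 in limma. These were the 3 of the 8 genes called in a fit of these days alone, beside 5.51% of all probes. Their correlations over these 32 arrays were -0.64, -0.76 and -0.66. They were -0.52, -0.67 and -0.53 without BAM replicate 5 at 90 days. At 7 and 30 days the correlations were 0.35, 0.35 and 0.06. The difference of the 2 slopes, a test added after the values had been seen, was called for 3 of the 8 genes beside 1.88% of all probes: Gli2 (-0.68, SE 0.11), Gli1 (-0.68, SE 0.15) and Smo (-0.45, SE 0.11), with adjusted p of 1.8e-04, 0.0042 and 0.0083 in limma. Smo was not called with quantile normalization (-0.47, adjusted p = 0.21 in limma). All 3 calls were lost without BAM replicate 7 at 7 days (adjusted p = 0.044, 0.015 and 0.19 in limma), and the early correlations were then 0.44 for Gli1, -0.15 for Gli2 and -0.17 for Smo. Without BAM replicate 5 at 90 days 1 call remained, since Gli1 (-0.61) and Smo (-0.38) had adjusted p of 0.055 and 0.10 in limma. The correlation of the smooth muscle score with the urothelial score was 0.59 at 7 and 30 days and -0.46 at 90 and 180 days. For the leukocyte score it was -0.49 and 0.10, and for the adipocyte score -0.41 and 0.16. For the fibroblast, Schwann cell and endothelial scores it was negative in both sets. BAM replicate 7 at 7 days was the lowest of its group in both the urothelial (-1.95) and the smooth muscle score (-0.16). With the smooth muscle score in the fit, the slope differences of Gli2, Gli1 and Smo were -0.41, -0.45 and -0.44 (adjusted p = 0.048, 0.087 and 0.054 in limma). In that fit 0.013% of all probes were called. With basal genes only the slope differences were -0.36, -0.25 and -0.24, and none was called, beside 0.043% of all probes. The cause of the change in slope was not tested.

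**Figure D3:**
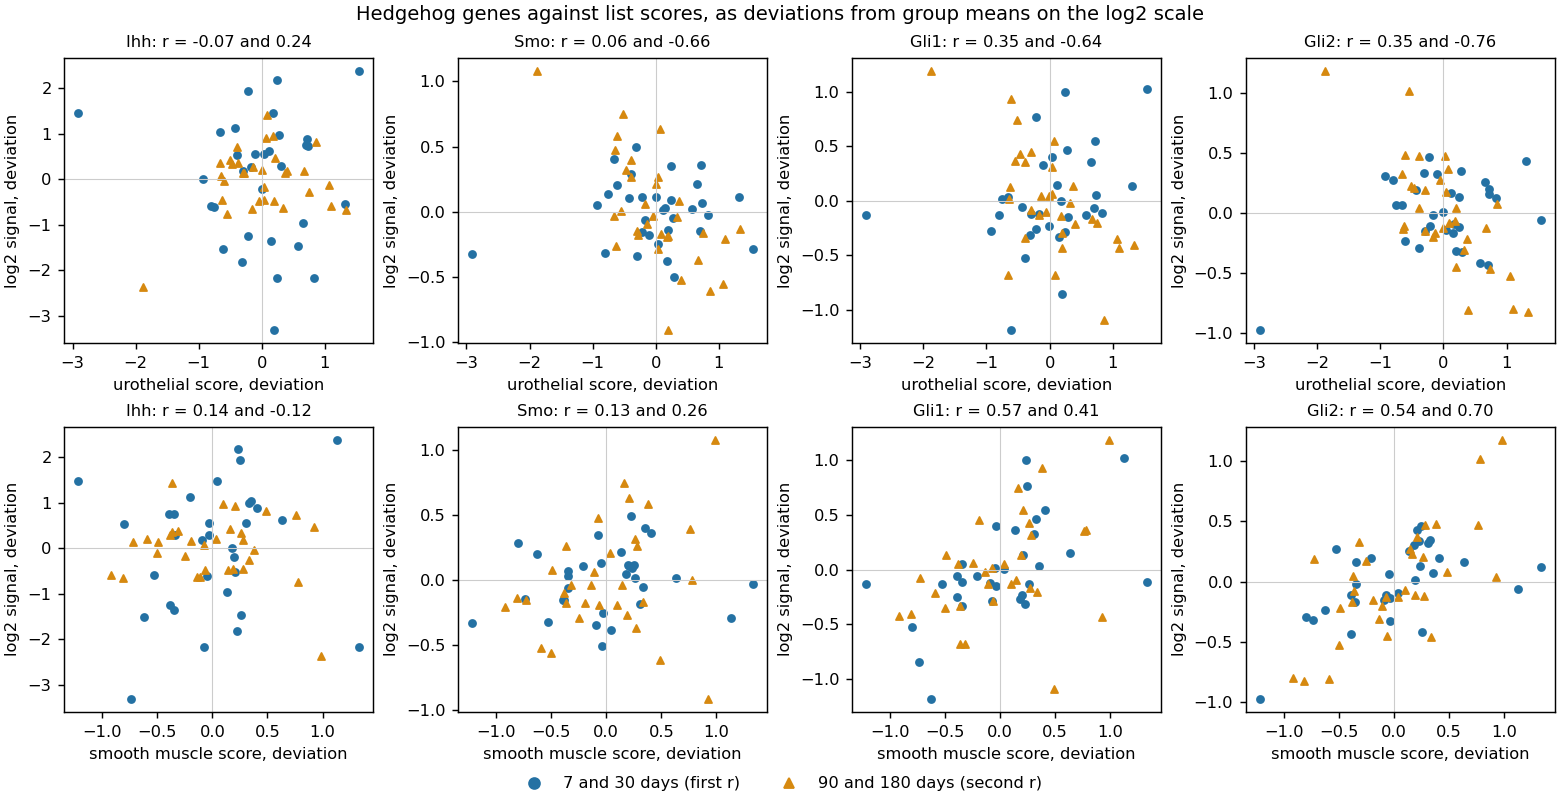
Signals of Ihh, Smo, Gli1 and Gli2 (y axis, log2 deviation from the group mean) against the urothelial score (upper row) and the smooth muscle score (lower row, x axis, log2 deviation from the group mean), 1 point per array. Gli1, Gli2 and Smo slope down with the urothelial score in the late arrays (triangles), Gli1 and Gli2 slope up with the smooth muscle score in both sets, and the circle at the far left of the upper row is BAM replicate 7 at 7 days.

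Gli1 and Gli2 followed the smooth muscle score, whose 9 genes belong to the contractile wall and of which 7 were saturated on some array. Their slopes of 0.46 (SE 0.11, adjusted p = 0.0021 in limma) and 0.48 (SE 0.08, adjusted p = 1.7e-05 in limma) were the 2 called among the 8 genes, beside 6.68% of all probes. Gli1 had r = 0.49 and rho = 0.50 (permutation p = 1.4e-04 for both) and Gli2 r = 0.62 (permutation p = 1e-05, the smallest that 100000 permutations can give) and rho = 0.58 (permutation p = 3e-05). Both correlations were positive in 7 of 8 groups. They were 0.57 and 0.54 in the early arrays, 0.41 and 0.70 in the late arrays, 0.55 and 0.60 without the 2 arrays farthest from the median score, and 0.67 and 0.65 after quantile normalization. Without BAM replicate 5 at 90 days the slope of Gli1 was 0.40 (adjusted p = 0.012 in limma), and 1 gene was then called. Without BAM replicate 7 at 7 days Ptch1 was also called (0.50, adjusted p = 0.0086 in limma), and with normexp correction Dhh was (0.33, adjusted p = 0.0023 in limma).

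Several of the genes moved with the Schwann cell score, the mean of 8 genes of nerve sheath of which 2 were well above background on all arrays. Gli1 had r = 0.56 (permutation p = 1e-05) and rho = 0.49 (permutation p = 1e-04), and r = 0.55 after quantile normalization. Ptch1 had r = 0.55 (permutation p = 2e-05) and rho = 0.53 (permutation p = 3e-05), but r = 0.24 after quantile normalization. Gli2 and Gli3 both had r = 0.48 (permutation p = 0.0011 and 0.0017), with rho of 0.34 and 0.31 (permutation p = 0.013 and 0.028). Dhh, whose product comes from that cell type in nerve, had r = 0.35 (permutation p = 0.012) and rho = 0.30 (permutation p = 0.025). Dhh also had r = 0.44 with the fibroblast score and r = 0.41 with the endothelial score (permutation p = 0.0021 and 0.0035), with rho of 0.35 and 0.40 (permutation p = 0.0075 and 0.0024). Gli2 ran against the leukocyte score (r = -0.48, rho = -0.52, permutation p = 9e-04 and 1.2e-04). The early and late values of r with the Schwann cell score were 0.55 and 0.58 for Gli1, 0.735 and 0.41 for Ptch1, 0.11 and 0.67 for Gli2, 0.26 and 0.64 for Gli3 and 0.10 and 0.46 for Dhh. Without the 2 arrays farthest from the median score they were 0.45, 0.47, 0.33, 0.33 and 0.24 over all arrays. The late value of Ptch1 was 0.18 without BAM replicate 5 at 90 days. Ihh had r = 0.63 early and -0.38 late with this score, and 0.088 late without that array. The part of cell makeup in these links was not tested.

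**Figure D4:**
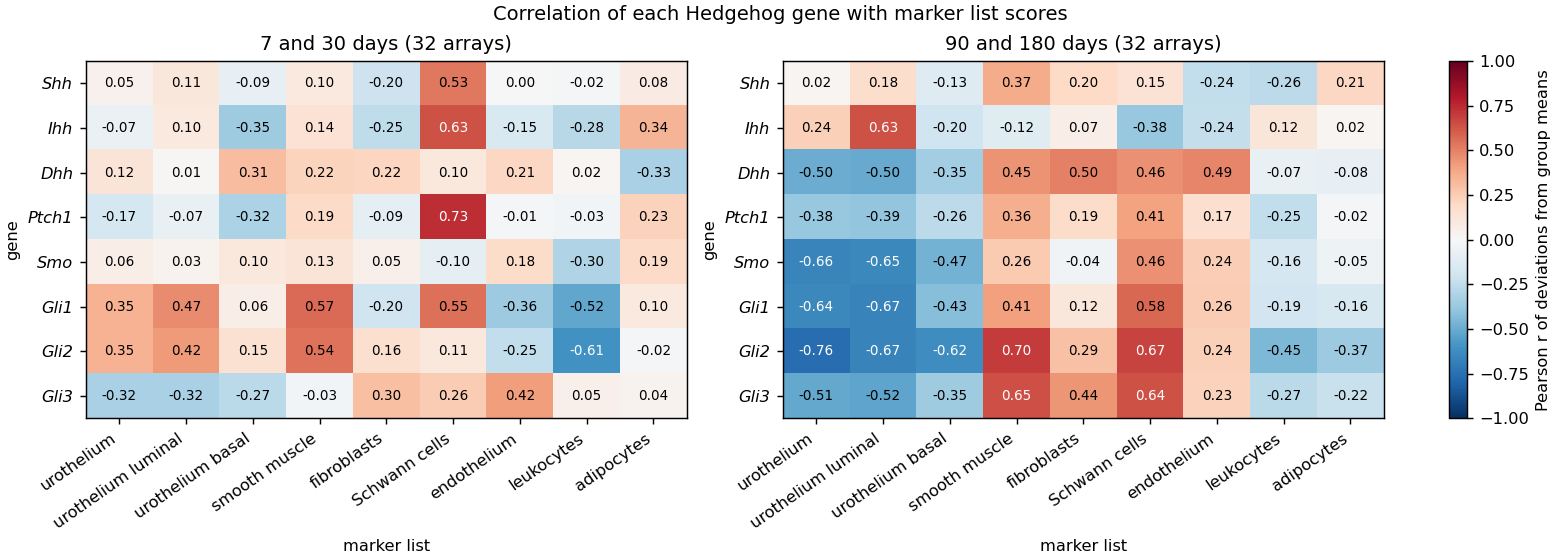
Pearson r of each Hedgehog gene (rows) with the score of each marker list (columns) over the 32 arrays of 7 and 30 days and the 32 arrays of 90 and 180 days, as deviations from group means. The urothelial columns of Gli1 and Gli2 change from positive to negative between the 2 sets, while their smooth muscle column is positive in both.

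Among themselves, the receptor and the output gene moved together. Ptch1 and Gli1 had r = 0.63 (permutation p = 1e-05) and rho = 0.54 (permutation p = 2e-05), with r above 0 in 8 of 8 groups, 0.71 at 7 and 30 days, 0.59 at 90 and 180 days and 0.44 after quantile normalization. Among 11164 named genes ranked by likeness, Gli1 was number 18 for Ptch1 and Ptch1 number 27 for Gli1. Ihh and Ptch1 had r = 0.56 (permutation p = 3.5e-04) and rho = 0.51 (permutation p = 1.5e-04), which was 0.70 at 7 and 30 days and -0.04 at 90 and 180 days, or 0.35 late without BAM replicate 5 at 90 days. Gli1 and Gli2 had r = 0.50 and rho = 0.53 (permutation p = 1.8e-04 and 5e-05) and were above 0 in 8 of 8 groups. Smo and Gli1 had r = 0.44 and rho = 0.35 (permutation p = 8.4e-04 and 0.0082), which was -0.09 in the early and 0.76 in the late arrays. Shh and Ptch1 had r = 0.48 (permutation p = 3.2e-04) and rho = 0.40 (permutation p = 0.0022), with 0.82 early and -0.10 late, but r = -0.022 after quantile normalization. Shh was well above background on 22 early and 2 late arrays. Without the 2 arrays farthest from the median of the second gene of each pair, r was 0.57, 0.50, 0.42, 0.41 and 0.37 in this order. These pairs are 5 of 28, all computed after the values had been seen, and the p-values are raw. Arrays share their scaling, and that part of a correlation was not tested apart from quantile normalization.

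**Figure D5:**
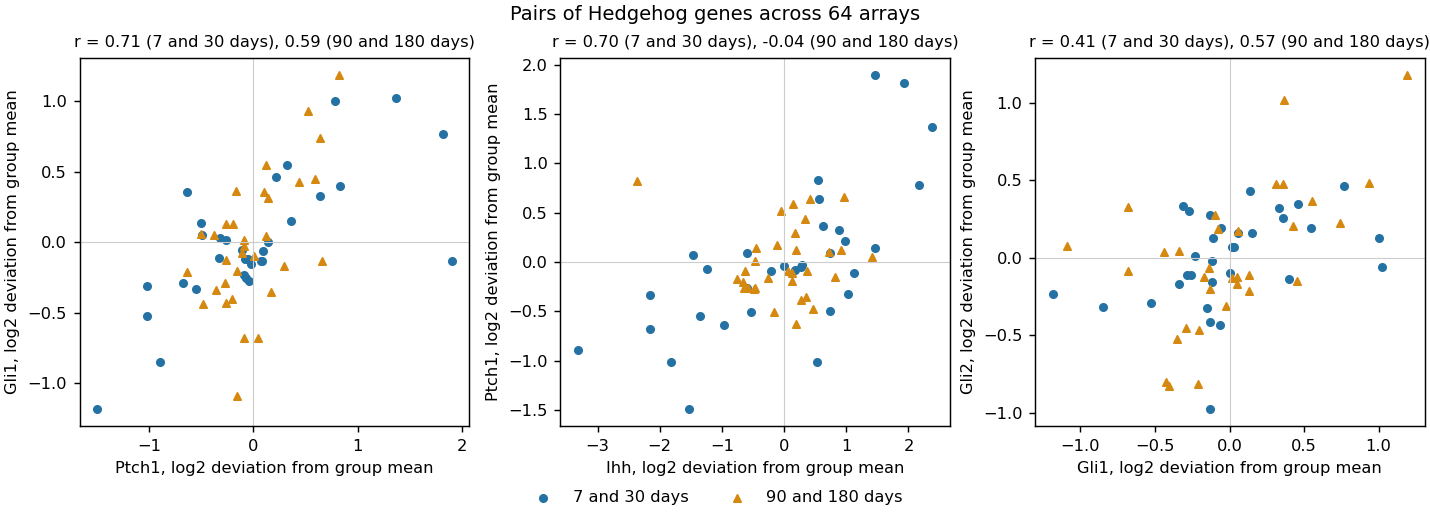
Deviations from group means (log2) of Gli1 against Ptch1, Ptch1 against Ihh and Gli2 against Gli1, 1 point per array, circles for 7 and 30 days and triangles for 90 and 180 days. Ptch1 and Gli1 rise together in both sets (r = 0.71 and 0.59), and Ihh and Ptch1 do so in the early set (r = 0.70 and -0.04).

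For the 7 genes well above background on at least 32 arrays, the most similar named genes over the 64 arrays, up to 3 each, were found by Pearson r of these deviations. They were Clic3 (0.81), Nfe2l3 (0.76) and Pkhd1 (0.73) for Ihh, and Esam (0.78), an adhesion molecule of endothelium, Kcnj8 (0.64) and Dysf (0.61) for Dhh. For Ptch1 they were Lcor (0.70), Otud7b (0.70) and Myoz1 (0.69), for Smo Pkdcc (0.76), Zfyve21 (0.72) and Klhdc8b (0.70), and for Gli1 Gfra2 (0.74), a receptor subunit for neurturin, Zfp641 (0.73) and Grin2c (0.71). For Gli2 they were Eml1 (0.83), Fam110b (0.82) and Runx1t1 (0.82), and for Gli3 Clip3 (0.75) and Irf2bp1 (0.72).

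Of 37 other Hedgehog pathway genes, 27 were on the array. At 7 days 2 were called between grafts, beside 7.71% of all probes, which is near their share: Kif7, a ciliary kinesin that controls Gli factors, was lower with ASCs by 1.15 (SE 0.24, adjusted p = 3.1e-04 in limma), and Bcl2, an inhibitor of cell death known as a Gli target, was higher by 0.66 (SE 0.17, adjusted p = 0.0029 in limma). At 90 days 4 were called, beside 12.4% of all probes, of which Evc2, a partner of Smo at the cilium, was lower with ASCs by 0.96 (SE 0.22) and Kif3a, a motor of ciliary transport, higher by 0.69 (SE 0.13). The other 2, Stk36 and Cdon, were lower, with 1 array and no array well above background. At 30 and 180 days none of the 27 was called, beside 1.67% and 2.42% of all probes.

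Bcl2 and Ccnd2, the cyclin D2 gene, rose from 7 to 30 days in both grafts. Bcl2 rose by 1.28 (SE 0.17) in BAM only and 1.21 (SE 0.17) with ASCs, and Ccnd2 by 0.90 (SE 0.17) and 1.08 (SE 0.17), with adjusted p from 2.4e-08 to 3.9e-05 in limma. They were the 2 of the 27 genes called with ASCs, beside 8.04% of all probes. In BAM only 4 of the 27 were called (8.63% of all probes), with Btrc (0.61, SE 0.11), part of the ubiquitin ligase that processes Gli factors, and Kif7 (-0.81, SE 0.24) beside them. From 30 to 90 days 9 were called in BAM only, 8 of them higher, a smaller share than the 44.7% of all probes. Of these, Disp2, Mycn and Lrp2 were well above background on no array at 90 days and on 0 to 2 at 30 days and get no fold. With ASCs 4 were called, again a smaller share than the 28% of all probes, higher for Disp1 (0.74), which releases the lipid-bound ligands, Ccnd2 (0.69) and Cul3 (0.60) and lower for Grk2 (-0.74), a kinase of Smo. From 90 to 180 days 3 of the 27 were called in BAM only, beside 9.36% of all probes, Disp1 (0.63) and Kif3a (0.60) higher and Evc2 (-1.13) lower. With ASCs none was called, beside 4.13% of all probes.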

How the data were processed

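Total RNA of 64 bladder walls was labelled with Cy3 and hybridized to 1-color Agilent arrays. The authors deposited the scanner output of Agilent Feature Extraction, whose processed signal is an intensity after background subtraction. They also deposited a matrix of intensity values, used here as an alternative. In BAM seeded with ASCs at 7 days, replicates 2, 3 and 4 of the matrix differed from the scanner signal by a median of -3.3 (log2). On the other arrays the matrix and the scanner signal hardly differed at the median. BAM replicate 1 at 180 days lacked 24873 matrix values. Depth has no meaning for arrays, and 8 arrays per group limit the precision. Each array held RNA of 1 rat.

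From 62976 spots, 4259 control spots and spots marked as outliers were left out, and spots of a probe were averaged. For each array, log2 of the processed signal minus its 75th percentile was computed from the deposited intensity values. Of 30367 probes, 22372 carried a RefSeq accession and 18758 matched a symbol of 15715 genes. All 64 arrays entered 1 fit with 8 groups in limma 3.58.1 (R 4.3.3), and p-values were adjusted by Benjamini-Hochberg. Calls needed an adjusted p under 0.01 and, for differences, a fold over 1.5. Scores of marker lists were entered as slopes beside the groups. Correlations used deviations from group means, with 100000 permutations within groups (Python 3.11.15, scipy 1.17.1). For each gene the named similar genes were the 3 with the highest r, and other pathway genes were named where called, up to the 4 with the widest change. Some results that these rules select are not reported here. The scripts were tested on simulated data. Members and lists were chosen with earlier results of these data known. Alternatives were other normalizations and background corrections, dim probes left out, a block on replicate number, separate fits, looser thresholds and each array left out. The slope difference between scan dates and the links between members were added after seeing the data.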

Additional observations from a re-analysis of the deposited data

Results flagged for a closer look

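In 64 sets of 8 arrays (8 genes in 8 groups), 6 had an array far from the others, by its gap to the nearest array as a share of the whole range (above Dixon's 95% critical value). Chance gives about 1 in 20. In BAM seeded with ASCs at 7 days, Shh was lowest in replicate 3 (-7.92 against -6.32 in the nearest, 0.711 of the range). In BAM only at 90 days, Shh was highest in replicate 8 (-3.30 against -5.03, 0.849), where it was not well above background. Replicate 1 of BAM seeded with ASCs at 30 days was highest for Ptch1 (-0.73 against -2.39, 0.617) and for Gli3 (-2.49 against -3.75, 0.531). Gli1 was highest in BAM replicate 8 at 7 days (-2.69 against -3.58, 0.573) and in BAM replicate 6 at 180 days (-0.85 against -1.22, 0.583).

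The graft difference of Dhh changed between days (moderated F of 6.05, adjusted p = 0.0071 in limma). The slope on the urothelial score differed between the late and early arrays for Gli1 (-0.68, adjusted p = 0.0042 in limma), Gli2 (-0.677, adjusted p = 1.8e-04) and Smo (-0.448, adjusted p = 0.0083). Without BAM replicate 7 at 7 days none of the 3 slopes passed.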

How the results depend on the processing

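No called value changed sign under any alternative run. The count of called genes between grafts at 7 days went from 0 to 1 with quantile normalization (Gli1), 1 with normexp background correction (Dhh) and 2 at an adjusted p below 0.05 with no fold threshold. From 90 to 180 days in BAM only it went from 0 to 1 with either of the first 2 settings. From 30 to 90 days with ASCs it fell from 2 to 1 with outlier spots kept and with a separate fit per comparison. For the interaction it fell from 1 to 0 with the matrix values, with the percentile over detected probes and with quantile normalization. For the urothelial slope it went from 0 to 3 at 90 and 180 days only and to 1 with the smooth muscle score added. Of all probes, 5.51% and 9.35% were called in these 2 fits. For the slope difference it fell from 3 to 0 with basal genes only and to 0 with the smooth muscle score added. The shares of all probes called in these 2 settings were 0.043% and 0.013%. The causes were not tested. With dim probes left out no Hedgehog gene was tested for slopes.

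Leaving out 1 array gave 0 called between grafts at 30, 90 and 180 days and 0 to 1 at 7 days. In BAM only it gave 3 to 4, 2 to 3 and 0 for the 3 successive steps, and with ASCs 2 to 3, 0 to 3 and 0. The interaction gave 0 to 1, the urothelial slope 0 to 2, the smooth muscle slope 1 to 3 and the slope difference 0 to 3.

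Replicate numbers give the place on a slide and pair no rats: deviations of same-numbered arrays correlated between -0.28 and 0.33 (median 0.033), with 9 of 32 pairs over 0.1. With the replicate block the slope difference fell from 3 called genes to 1 (Gli2), and no other count changed. Dim signal limits Shh, Dhh and Gli3 at 90 and 180 days, where they were well above background on 2, 15 and 6 of 32 arrays.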
